A study of Mus musculus with 23 samples.

Results

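The proximal T cell receptor signalling genes are the kinases, adaptors and effectors that act directly beneath the T cell receptor, and 9 were listed for this account: Lck, Fyn, Zap70, Lat, Lcp2, Plcg1, Prkcq, Sh2d1a and Ubash3a. A gene was measured where the platform annotation gave a probe set that single symbol, and its main probe set was the one with the highest mean log2 intensity over all arrays. By this rule 7 of the 9 genes were measured, with 10 of the 22626 probe sets tested, out of 12393 genes in all. Lck and Ubash3a were not analysed here.

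Expression was measured on 23 Affymetrix Mouse 430A 2.0 arrays of biotin-labelled RNA, in 6 groups. The T cell groups were 6 arrays of wild-type CD8+ T cells and 5 of the CD8+ fraction of Snf5-deficient lymphomas, all from mice 10 to 15 weeks old. The fibroblast groups, 3 arrays each, were mouse embryonic fibroblasts (MEFs) of E13.5 embryos: Ezh2-deficient cells, cells deficient in both Snf5 and Ezh2, and a set of wild-type controls for each. Snf5, encoded by Smarcb1, belongs to the core of the chromatin remodeller SWI/SNF, and Ezh2 is the methyltransferase of Polycomb repressive complex 2. The MEFs were inactivated conditionally per the design text. The titles call the arrays of each group biological replicates. The Cre driver, the clonality of the lymphomas and the animal or culture behind each array are not stated in these sources. The design compares lymphoma with wild-type CD8 arrays to ask which programs change when Snf5 is lost in tumours.

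When the T cell receptor is engaged, the Src family kinases Lck and Fyn phosphorylate its signalling chains, and the kinase Zap70 docks there and phosphorylates the adaptors Lat and Lcp2 (SLP-76). These assemble a complex that activates phospholipase C gamma 1 (Plcg1), whose products raise calcium and recruit Ras activators and protein kinase C theta (Prkcq), which leads to NF-kappaB. Sh2d1a (SAP) links SLAM family receptors to Fyn, and Ubash3a is a negative regulator of the pathway.

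The members did not move as a block in the lymphomas. Prkcq was lower on every lymphoma array than on wild-type CD8 replicates 2 to 5, by 4.74 ± 0.93 on the log2 scale (SE, 5 against 4 arrays, a 26.7-fold fall). Plcg1 was lower there by 1.33 ± 0.19 (a 2.51-fold fall), on values close to the floor of the arrays. Both passed the threshold used throughout, a limma adjusted p below 0.05 over all probe sets. They were 2 of 7 members, where 26.4% of all genes passed. Both were without overlap between groups, as were 27.1% of all genes. One of the Zap70 probe sets was higher on every lymphoma array. Fyn, Lcp2 and Lat stayed at high intensity in both groups. Against all 6 wild-type arrays, none of the 7 main probe sets passed that threshold, where 16.8% of all genes did.

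Promoter sequence is shown for Prkcq, the member with the largest fall, and for Zap70, the member with a probe set that rose. Their start sites differ in CpG content, and a link between CpG content and the expression differences was not tested. The windows are the 250 bases before the RefSeq start, read 5′ to 3′ on the gene's strand in assembly GRCm38.p6, and capitals mark CpG dinucleotides. Zap70 has 3 windows in the RefSeq table, and the one at the edge of the gene is shown.
Prkcq, chr2:11172132-11172381, + strand: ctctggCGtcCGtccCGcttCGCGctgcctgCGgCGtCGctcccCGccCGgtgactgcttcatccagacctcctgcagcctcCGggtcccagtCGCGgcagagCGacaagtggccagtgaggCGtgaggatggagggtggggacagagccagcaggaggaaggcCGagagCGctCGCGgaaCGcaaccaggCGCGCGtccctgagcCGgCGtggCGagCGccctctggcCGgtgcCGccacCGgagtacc
Zap70, chr1:36761548-36761797, + strand: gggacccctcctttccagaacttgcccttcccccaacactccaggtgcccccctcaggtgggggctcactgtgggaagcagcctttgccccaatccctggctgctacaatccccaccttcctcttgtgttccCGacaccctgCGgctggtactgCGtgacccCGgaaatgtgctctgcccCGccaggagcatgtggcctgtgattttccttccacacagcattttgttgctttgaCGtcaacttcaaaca
The Prkcq window held 30 CpG dinucleotides, an observed-to-expected ratio of 0.916. The Zap70 window held 6, a ratio of 0.296, and its other windows, 2717 and 17186 bases away, held 2 and 7 (ratios 0.116 and 0.338). Over 32851 windows of this length the median ratio was 0.374 and the quartiles were 0.167 and 0.723, so Prkcq lay above the upper quartile and Zap70 between the lower quartile and the median. Of the other members with a window, Fyn had a ratio of 0.794, Plcg1 of 0.668 and Lat of 0.230, and Lcp2 had no CpG. Fyn and Plcg1 both had 21 CpGs.

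Letters of 6 factor motifs were searched on both strands of the same windows. In the Zap70 window the cyclic AMP response element TGACGTCA began 18 bases before the start, and 1.55% of all windows held it. It overlaps CTTTGA, the TCF/LEF letters, which began at 21 bases before the start and were held by 13.8% of windows. The E box CAGGTG, found in 17.2% of windows, occurred in the Zap70 window at 209 and 196 bases before the start. It also occurred once on the minus strand of the Plcg1 window. The Fyn and Lcp2 windows held CTTTGA, and the Lcp2 window also held the E box CAGCTG, present in 13.0% of windows. GGAAGT (ETS letters, 19.7% of windows) and TGTGGT (RUNX letters, 14.0%) were in none of the 6 windows, though the Zap70 window 2717 bases away held both, and neither the Prkcq nor the Lat window held any of the letters searched.

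The arrays were first checked against their labels. Smarcb1 was lower in the lymphomas than in all wild-type CD8 arrays by 3.65 ± 0.59 on the log2 scale (SE, limma adjusted p = 0.0024), with no overlap between groups. The lymphomas were spread: replicates 1 to 5 read 8.30, 8.49, 5.81, 5.64 and 8.67, against 10.4 to 11.5 in wild type. The second Smarcb1 probe set was lower by less, with a difference of -1.95 ± 0.43 (limma adjusted p = 0.011). It read 8.65 to 9.98 on the lymphomas, whose array medians were 8.19 to 8.24, so signal remained there on this probe set. Wild-type replicates 1 and 6 stood apart. Their mean log2 intensity over 8 measured B cell markers was 10.2 and 10.1, against 6.86 to 7.43 in replicates 2 to 5 and 6.23 to 6.70 in the lymphomas. Over 11 myeloid markers it was 12.4 on both, against 7.09 to 8.19 in replicates 2 to 5 and 8.48 to 10.5 in the lymphomas. The defining CD8 chain Cd8b1 read 9.35 and 8.07 on these arrays and 12.5 to 13.6 on the other wild-type arrays, while all 5 lymphomas read 11.97 to 12.90. In such bulk samples fewer T cells and less RNA per T cell cannot be told apart. Differences are therefore given against all 6 wild-type arrays and against replicates 2 to 5.

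Differences also remained without replicates 1 and 6. Against replicates 2 to 5, the limma fit called 7 of 11 myeloid markers and 5 of 7 proliferation genes higher in the lymphomas, and 2 of 5 NK cell, 3 of 8 B cell, 1 of 4 erythroid and 1 of 4 CD4 T cell markers lower. Of all genes, 13.2% were called higher and 13.2% lower there, and the erythroid and CD4 T cell counts are 1 gene each. The mean of the NK list was 9.20 to 10.7 on the wild-type and 6.18 to 7.12 on the lymphoma arrays. Proliferation genes averaged 8.68 and 8.94 on wild-type replicates 3 and 4, against 10.9 to 11.9 on the other wild-type arrays and 11.8 to 12.1 on the lymphomas. The CD4 chain read 6.25 to 11.1 on wild-type arrays and 5.92 to 6.73 on lymphoma arrays. The erythroid list averaged 5.21 to 9.67 on wild-type and 4.92 to 7.53 on lymphoma arrays, lowest on replicates 3 and 4 of both groups. The T cell list had 1 of 9 genes lower, with a mean of 12.6 to 13.2 on wild-type replicates 2 to 5 and 11.6 to 12.9 on the lymphomas. The part of these differences in the members' results was not tested.

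**Figure D1:**
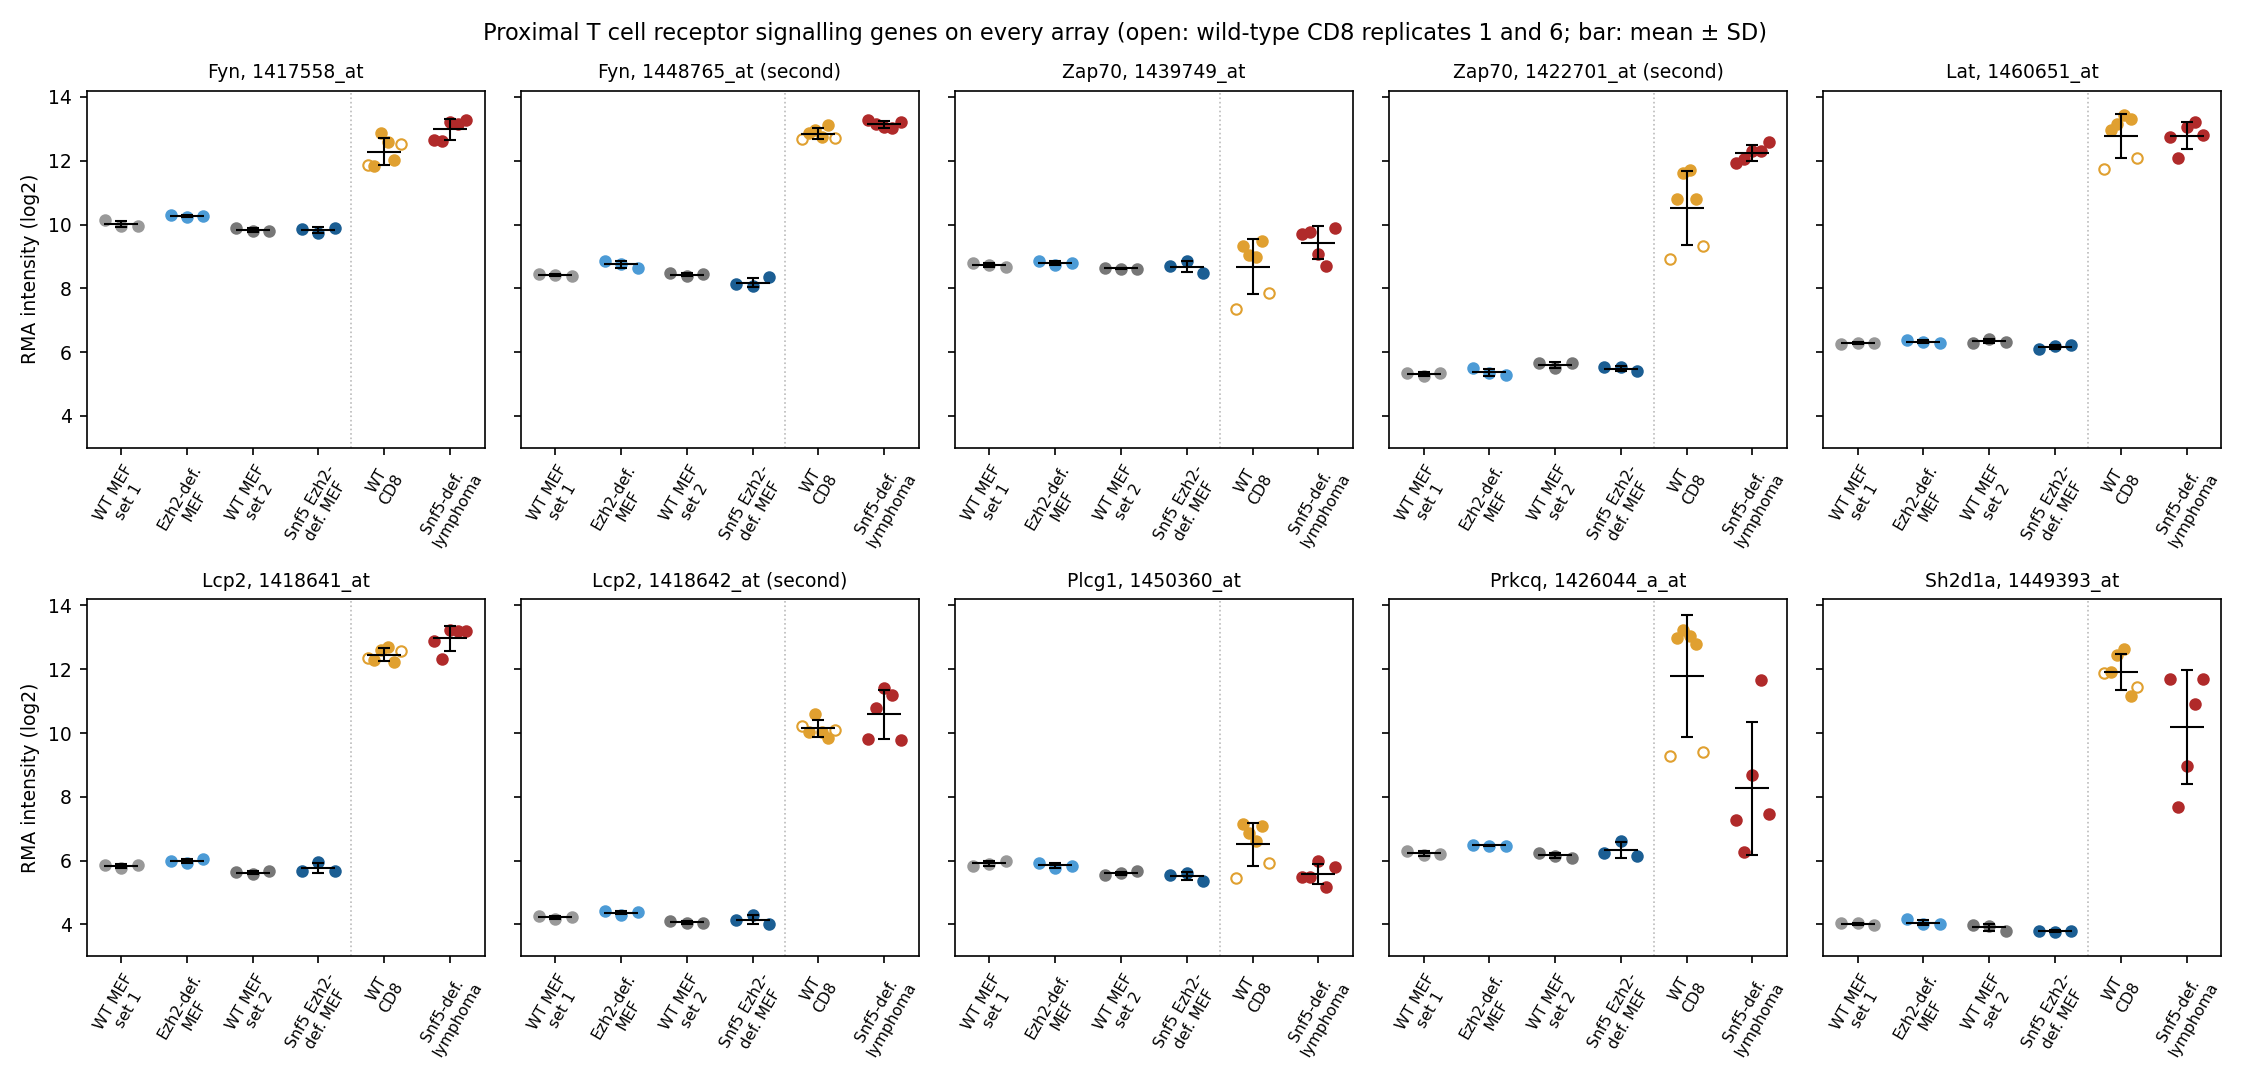
Log2 RMA intensity of the 10 member probe sets (vertical axis) on every array in the 6 groups (horizontal axis), with mean ± SD as black bars and wild-type CD8 replicates 1 and 6 as open points. Prkcq spans 6.26 to 11.7 on the lymphoma arrays, whereas the first Fyn probe set stays between 12.6 and 13.3; the labels do not say whether MEF and T cell arrays were summarised together, so levels across the dotted line are descriptive.

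Fyn, the Src family kinase of the group that was measured, was bright in both T cell groups. Its main probe set, 1417558_at, ranged from 11.8 to 12.9 with a median of 12.3 over the 6 wild-type arrays, and read 12.65, 12.62, 13.21, 13.16 and 13.27 on lymphoma replicates 1 to 5. The groups overlapped, with wild-type replicate 3 above lymphomas 1 and 2. The difference was 0.70 ± 0.23 (log2, SE, adjusted p = 0.063 by limma) against all wild-type arrays and 0.65 ± 0.25 (adjusted p = 0.089) against replicates 2 to 5. With the replicate number as a block, the first of these became 0.75 and passed, with a limma adjusted p of 0.035. Without wild-type replicate 3, the highest of its group, the differences were 0.82 and 0.83 and both passed (limma adjusted p = 0.035 and 0.049). Fyn did not pass in 15 of 20 alternatives against all wild-type arrays and in 17 of 18 against replicates 2 to 5. The second probe set, 1448765_at, differed by 0.29 ± 0.12 (limma adjusted p = 0.13), in the same direction and without passing.

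Zap70, the kinase recruited to the phosphorylated receptor chains, had 2 probe sets that behaved differently. The probe set made main by the rule, 1439749_at, ranged from 7.35 to 9.50 with a median of 9.01 on wild-type arrays, and read 9.71, 9.77, 9.07, 8.71 and 9.90 on the lymphomas. It overlapped between groups, and its difference of 0.76 ± 0.41 against all wild-type arrays did not pass (limma adjusted p = 0.24). This probe set also read 8.49 to 8.86 in fibroblasts, which express no T cell receptor, and it became the main one through those arrays.

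The other Zap70 probe set, 1422701_at, read 5.25 to 5.67 in fibroblasts and 8.92, 10.79, 11.61, 11.69, 10.79 and 9.33 on wild-type CD8 replicates 1 to 6. It read 11.93, 12.05, 12.31, 12.32 and 12.60 on the lymphomas. Every lymphoma array lay above every wild-type array, and replicates 1 and 6 were the lowest of the wild type. The difference was 1.72 ± 0.49 (log2, SE, 3.29-fold) against all wild-type arrays, with a limma adjusted p of 0.037. Without replicates 1 and 6 it was 1.02 ± 0.24 (2.02-fold), with a limma adjusted p of 0.016. The main probe set differed by 0.22 ± 0.27 in that comparison (limma adjusted p = 0.55), so the rise of Zap70 rests on 1 of its 2 probe sets.

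Lat, the membrane adaptor that Zap70 phosphorylates, did not differ detectably. It read 11.73, 12.95, 13.15, 13.43, 13.29 and 12.09 on wild-type replicates 1 to 6, and 12.74, 12.10, 13.05, 13.21 and 12.80 on the lymphomas. Replicates 1 and 6 were again the lowest wild-type arrays. The difference from all wild-type arrays was 0.01, with a 95% interval from -0.73 to 0.74 (limma adjusted p = 0.99), and its sign changed with the setting. With replicates 2 to 5 as controls it was -0.42 ± 0.23 (limma adjusted p = 0.19).

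Lcp2 (SLP-76), the cytosolic adaptor that joins Lat to Plcg1, was also bright in both groups. Its main probe set, 1418641_at, ranged from 12.2 to 12.7 with a median of 12.5 over the wild-type arrays, and read 12.89, 12.31, 13.24, 13.19 and 13.19 on the lymphomas. Only lymphoma 2 lay within the wild-type range. The difference was 0.51 ± 0.19 (limma adjusted p = 0.093) against all wild-type arrays and 0.51 ± 0.22 (limma adjusted p = 0.12) against replicates 2 to 5. Without lymphoma 2, the lowest tumour on this probe set, the difference was 0.67 in both comparisons, with limma adjusted p of 0.016 and 0.023. With all arrays kept, array weights also gave a pass against all wild-type arrays (0.55, limma adjusted p = 0.049). In 18 of 20 alternatives of that comparison Lcp2 did not pass. The second probe set, 1418642_at, differed by 0.45 ± 0.31 (limma adjusted p = 0.36) and was spread from 9.77 to 11.4 among the lymphomas. There lymphoma 2 read 10.79, above every wild-type array, and lymphomas 1 and 5 were the lowest tumours.

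Sh2d1a (SAP), the adaptor of SLAM family receptors, varied most among the lymphomas after Prkcq. It read 11.88, 11.92, 12.46, 12.62, 11.15 and 11.46 on wild-type replicates 1 to 6 and 11.70, 7.67, 8.96, 10.90 and 11.69 on the lymphomas. Lymphomas 2 and 3 were far below every wild-type array, while lymphomas 1 and 5 lay inside the wild-type range. The difference was -1.73 ± 0.70 (limma adjusted p = 0.12) against all wild-type arrays and -1.85 ± 0.84 (limma adjusted p = 0.13) against replicates 2 to 5.

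Plcg1, the phospholipase that generates the second messengers of the pathway, read below the median intensity of its array on all 11 T cell arrays. It read 5.46, 7.15, 6.85, 6.60, 7.07 and 5.92 on wild-type replicates 1 to 6, and 5.49, 5.50, 5.97, 5.18 and 5.80 on the lymphomas. Replicates 1 and 6 lay within the lymphoma range, and the other 4 wild-type arrays lay above all lymphomas. Against all wild-type arrays the difference was -0.92 ± 0.31 (limma adjusted p = 0.070), and -1.04 with the replicate block (limma adjusted p = 0.049). It passed without wild-type replicate 1 (-1.13, limma adjusted p = 0.013) or replicate 6 (-1.04, limma adjusted p = 0.049). In 16 of 20 alternatives it did not pass, with limma adjusted p up to 0.16. With the 4 other wild-type arrays alone it was -1.33 ± 0.19 (limma adjusted p = 0.0013). Lymphoma 4 lay in the lowest 25% of its array, and Plcg1 read 5.37 to 6.00 in fibroblasts, so the fold is one of values close to the floor of the arrays.

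Prkcq, protein kinase C theta, had the largest difference of the members. It read 9.27, 12.99, 13.23, 13.03, 12.79 and 9.42 on wild-type replicates 1 to 6, and 7.26, 6.26, 8.68, 11.68 and 7.46 on the lymphomas. Replicates 2 to 5 lay within 0.5 of each other, replicates 1 and 6 were far below them, and lymphoma 4 was the only tumour above replicates 1 and 6. Lymphoma 2 lay in the range of the fibroblasts, 6.09 to 6.60. The difference from all wild-type arrays was -3.52 ± 1.08 and narrowly missed the threshold (limma adjusted p = 0.0502). It became -3.99 with the replicate block (limma adjusted p = 0.028). It also passed without wild-type replicate 1 (-4.02, limma adjusted p = 0.027), wild-type replicate 6 (-3.99, 0.030) or lymphoma 4 (-4.37, 0.017). In 12 of 20 alternatives it did not pass, with limma adjusted p up to 0.11. Against replicates 2 to 5 it was -4.74 ± 0.93, with a 95% interval from -6.84 to -2.64 (limma adjusted p = 0.0062).

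**Figure D2:**
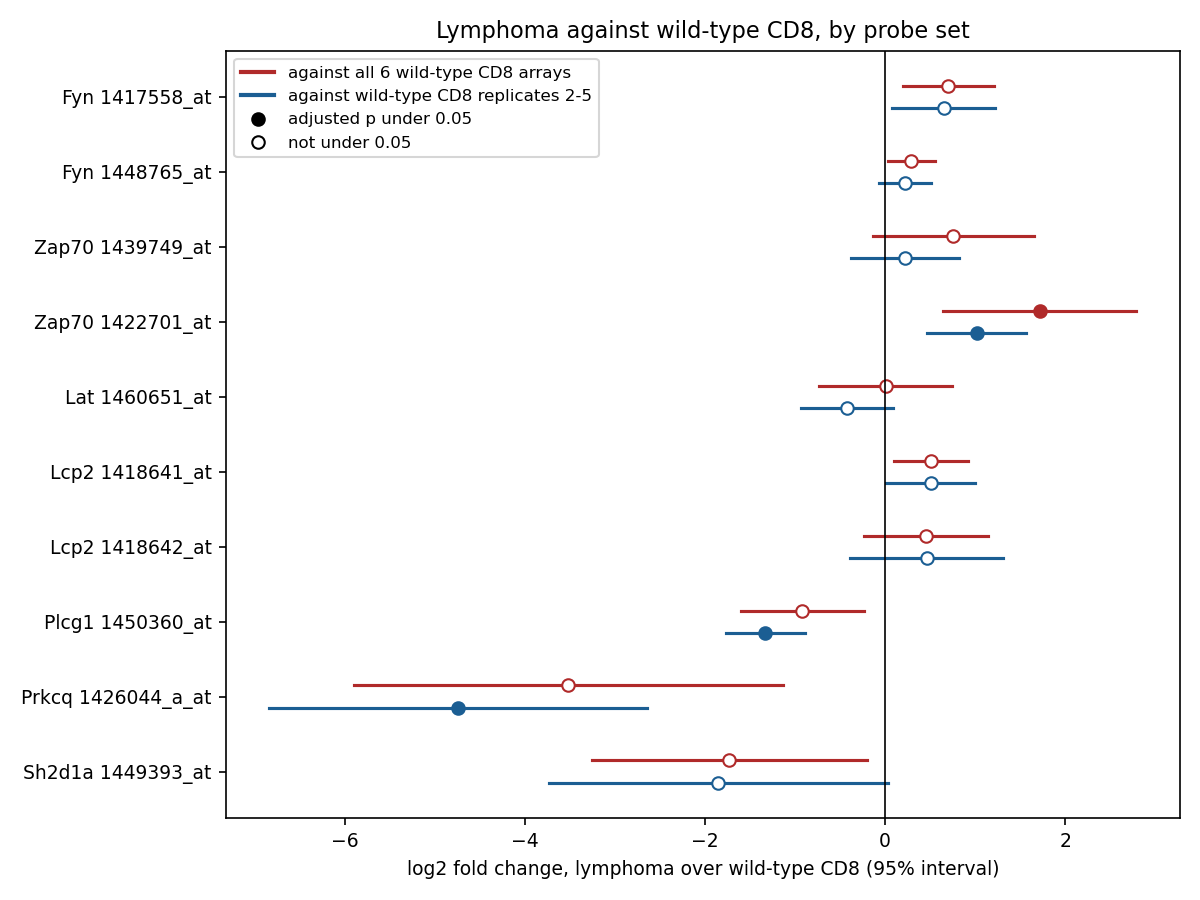
Log2 fold change, lymphoma over wild-type CD8 (horizontal axis), with 95% intervals for the 10 member probe sets (vertical axis), against all 6 wild-type arrays (red) and replicates 2 to 5 (blue); filled points have a limma adjusted p below 0.05. Prkcq and Plcg1 are filled in blue, at -4.74 and -1.33, and the second Zap70 probe set is filled in both colours, at 1.72 and 1.02.

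Counted by main probe set, 0 of 7 members passed against all wild-type arrays with limma, where 16.8% of all 12393 genes passed. An unadjusted p below 0.05 was held by 5 of 7 members and 31.8% of all genes. With the replicate block 1 member passed as higher (Fyn) and 2 as lower (Plcg1 and Prkcq), together 3 of 7 beside 16.7% of all genes (8.7% higher and 8.02% lower). Against replicates 2 to 5, 2 of 7 members passed, both lower, where 26.4% of all genes passed and 13.2% passed as lower. The block left that count at 2, where 20.3% of genes passed (10.8% higher and 9.52% lower). Both were also the members without overlap between groups there, 2 of 7 beside 27.1% of all genes. The members' median difference was 0.01 against all wild-type arrays and -0.42 against replicates 2 to 5, beside medians of -0.07 and -0.11 over all genes. With 7 members, 1 gene moves such a share by a wide margin, and the share called lay below the background in the first comparison, near it in the second and above it with the block.

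Some members varied with each other and with the marker lists, and others did not. Within groups, over the 11 T cell arrays, the highest correlations were 0.88 for Prkcq with Lat and 0.87 for Plcg1 with Zap70. Lcp2 with Fyn gave 0.77 and Plcg1 with Lat 0.72, whereas Lcp2 with Zap70 gave -0.26, the lowest. Other pairs lay between, such as Plcg1 with Lcp2 at 0.009 and Zap70 with Fyn at -0.037. Each gene was taken by its main probe set, and that of Zap70 also gave signal in fibroblasts. Across the same arrays the main Zap70 probe set had a correlation of -0.89 with the mean of the B cell markers, and Lat had 0.79 with that of the T cell markers. Fyn had -0.80 with the CD4 T cell list and -0.75 with the erythroid list, Lcp2 had -0.71 with the erythroid list, and Prkcq had -0.74 with the proliferation list. With the T cell list, Fyn, Lcp2 and Sh2d1a had 0.066, 0.003 and 0.051. The correlations with marker lists were not taken within groups, so the difference between lymphoma and wild type enters them. All these correlations are descriptions over arrays that share wild-type replicates 1 and 6, and carry no test. The genes most like the mean profile of the 7 members over the 11 arrays were Lrrc42 (r = 0.971), E4f1 (0.954), Bcl11b (0.948), a T cell transcription factor, Ccdc166 (0.945) and Zfp1 (0.943). These were the highest values in a search of all 12393 genes, members left out, and carry no test. The profile averages members whose differences between lymphoma and wild type had opposite signs.

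**Figure D3:**
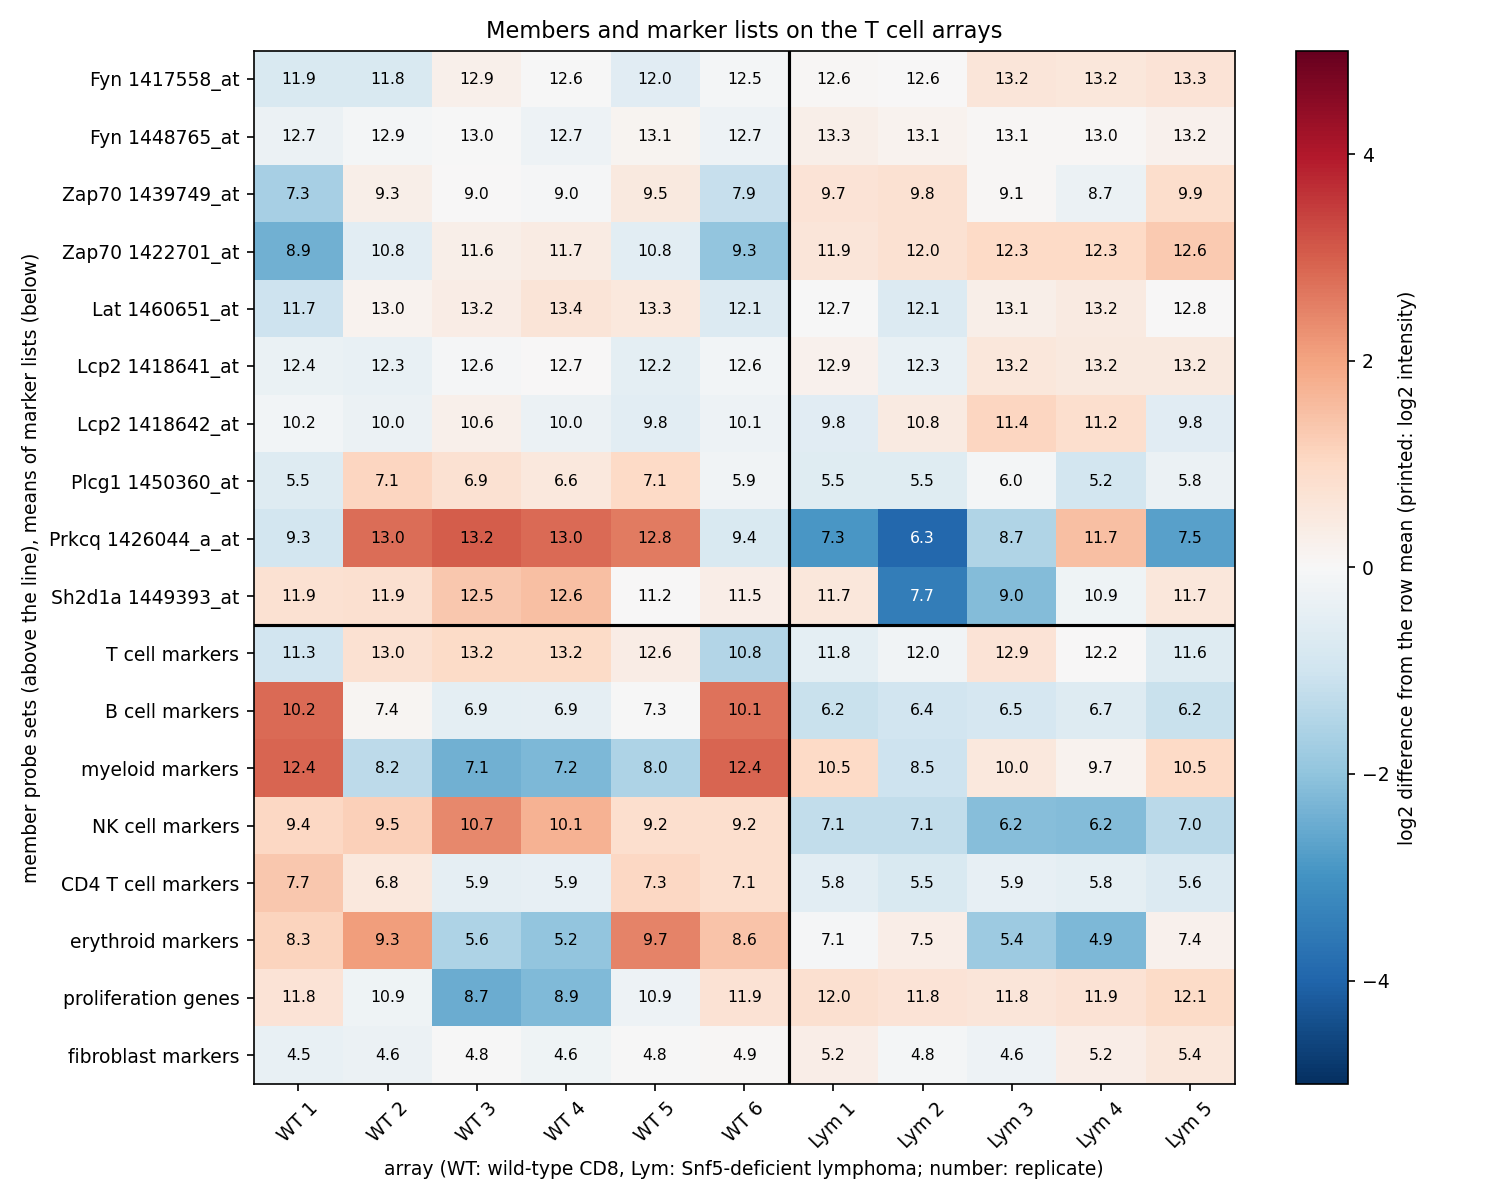
Log2 intensity on the 11 T cell arrays (columns) of the 10 member probe sets and of the means of 8 marker lists (rows), coloured by the difference from the row mean. Wild-type arrays 1 and 6 have B cell means of 10.2 and 10.1 and low Prkcq (9.3 and 9.4), and the lymphoma arrays have B cell means of 6.2 to 6.7, with Prkcq below 9.3 on 4 of them and at 11.68 on lymphoma 4.

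Of the receptor complex and coreceptors, 1 of 9 measured genes was higher and 1 lower against all wild-type arrays, and 0 were higher and 1 lower against replicates 2 to 5. The background was 9.13% higher and 7.71% lower in the first comparison, and 13.2% each way in the second. The list median was 0.25 and -0.15. With the replicate block 2 genes were lower against replicates 2 to 5, beside 9.52% of all genes. Cd2, an adhesion and costimulatory receptor, ranged from 11.6 to 13.7 on wild-type arrays and read 7.79, 9.39, 12.27, 6.76 and 7.58 on the lymphomas. Lymphoma 3 lay within the wild-type range and the other 4 below it. The difference was -4.05 ± 0.87 (limma adjusted p = 0.010), and -4.54 against replicates 2 to 5 (limma adjusted p = 0.00997). The costimulatory receptor Cd28 was higher by 0.60 ± 0.18 (limma adjusted p = 0.041), but lost that call in 13 of 20 alternatives, the replicate block among them (limma adjusted p = 0.11), and did not pass against replicates 2 to 5 (limma adjusted p = 0.080).

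Other positive components of the proximal cascade held the most calls: 1 of 15 measured genes was higher and 6 were lower against all wild-type arrays, and 1 and 7 against replicates 2 to 5 (1 and 8 with the replicate block), with medians of -0.54 and -0.69. The shares over all genes were 9.13% higher and 7.71% lower in the first comparison. In the second they were 13.2% each way, or 10.8% higher and 9.52% lower with the block. Trat1, a transmembrane adaptor that associates with the receptor, ranged from 9.88 to 11.2 on wild-type arrays and from 2.74 to 4.91 on the lymphomas, all 5 in the lowest 25% of their arrays. Its difference was -6.76 ± 0.45 (limma adjusted p = 1.44e-05), and -7.01 against replicates 2 to 5 (2.93e-05). Txk, a Tec family kinase, ranged from 5.46 to 11.01 and from 3.66 to 4.28, again with all lymphomas in the lowest 25%, and differed by -4.68 ± 1.01 (limma adjusted p = 0.011), or by -6.14 against replicates 2 to 5 (5.33e-05). The folds of both are ones of values near the floor.

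Nck2, an adaptor that binds Lcp2 and the receptor, ranged from 10.6 to 12.1 on wild-type and from 7.56 to 9.49 on lymphoma arrays, a difference of -3.00 ± 0.36 (limma adjusted p = 0.00052). The call held in 20 of 20 alternatives, with differences from -3.25 to -1.60, and from -3.25 to -2.76 when 1 array was left out. Dok2, placed in this list but known mainly as an inhibitory adaptor, differed by -3.10 ± 0.58 (limma adjusted p = 0.0054). The values of Nck2 and Dok2 against replicates 2 to 5 were -3.36 and -3.86 (limma adjusted p = 0.00015 and 0.00022). The remaining calls, named after their values were seen, were Tec, a kinase related to Txk (-2.45, limma adjusted p = 0.0018), Nck1 (-1.12, 0.044, a call lost in 9 of 20 alternatives), and Sh2d2a, the T cell specific adaptor that binds Lck. Sh2d2a was the gene that rose: it ranged from 10.1 to 11.7 on wild-type and from 12.1 to 13.2 on lymphoma arrays, a difference of 1.72 ± 0.31 (limma adjusted p = 0.0042). With replicates 2 to 5 as controls, Tec, Nck1 and Sh2d2a differed by -2.64, -1.26 and 1.37 (limma adjusted p = 0.0023, 0.041 and 0.0034). Grap2, which links Lat to Lcp2, differed by -0.53 against all wild-type arrays (limma adjusted p = 0.65) and passed as lower against replicates 2 to 5 (-1.60, limma adjusted p = 0.0095). Its lowest wild-type value, 7.12, lay below all lymphomas (8.16 to 9.99), whereas replicates 2 to 5 read 10.1 to 10.7.

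Genes that control Src family kinases had 0 of 9 higher and 2 lower against all wild-type arrays, and 0 and 3 against replicates 2 to 5, with medians of -0.25 and -0.31. Over all genes, 9.13% were higher and 7.71% lower in the first comparison, and 13.2% each way in the second. Pag1, the adaptor that brings the inhibitory kinase Csk to the membrane, ranged from 11.7 to 12.4 on wild-type and from 6.15 to 8.45 on lymphoma arrays. Its difference was -4.55 ± 0.40 (limma adjusted p = 7.98e-05). Over 20 alternatives it stayed a call, but the difference ranged from -4.79 to -2.79, and from -4.79 to -4.21 when 1 array was left out. Ptpn6 (SHP-1), a phosphatase that dampens receptor signalling, lay between 9.78 and 9.88 on all wild-type arrays and between 6.87 and 7.87 on the lymphomas, a difference of -2.26 ± 0.17 (limma adjusted p = 3.23e-05). For both genes the wild-type arrays lay close together, replicates 1 and 6 included, and without those the differences were -4.67 and -2.27 (limma adjusted p = 0.00019 and 9.87e-05). Sit1, an inhibitory transmembrane adaptor named after its values were seen, was lower against replicates 2 to 5 (-4.40, limma adjusted p = 0.0015), and against all wild-type arrays it did not pass (-2.93, limma adjusted p = 0.090) except in 4 of 20 alternatives, among them the block (-3.51, limma adjusted p = 0.034).

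Among negative regulators 0 of 13 measured genes were higher and 3 lower against all wild-type arrays, and 0 and 4 against replicates 2 to 5, with medians of -0.27 and -0.95. The background was 9.13% higher and 7.71% lower in the first comparison, and 13.2% each way in the second. Inpp5d (SHIP-1), the lipid phosphatase that removes PIP3, ranged from 11.60 to 11.96 on wild-type and from 9.34 to 9.84 on lymphoma arrays, a difference of -2.30 ± 0.13 (limma adjusted p = 8.18e-06). Sla2, an adaptor that promotes removal of the receptor, differed by -2.29 ± 0.52 (limma adjusted p = 0.014). Without replicates 1 and 6, Inpp5d and Sla2 differed by -2.27 and -2.98 (limma adjusted p = 2.05e-05 and 0.00024). Dgka, the kinase that consumes diacylglycerol, differed by -1.47 ± 0.44 (limma adjusted p = 0.046) against all wild-type arrays, a call lost in 10 of 20 alternatives, and by -2.13 ± 0.18 (limma adjusted p = 7.7e-05) against replicates 2 to 5. Rasa1, a Ras GTPase activating protein named after its values were seen, was the further gene called against replicates 2 to 5 (-0.95, limma adjusted p = 0.00065), and differed by -0.65 against all wild-type arrays (0.079).

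The branches downstream had 0 of 14 measured genes called against all wild-type arrays with limma, beside 16.8% of all genes. An unadjusted p below 0.05 was held by 7 (31.8% of all genes), and 1 was lower with the replicate block (8.02% of all genes). Map2k1, the gene of the list with the smallest p, differed by -0.38 (limma adjusted p = 0.088), or by -0.31 against replicates 2 to 5 (0.15). The comparison with replicates 2 to 5 gave 0 higher and 3 lower, where 13.2% of all genes passed each way. The 3 were named after their values were seen. Rasgrp1, the diacylglycerol-dependent Ras activator, differed by -3.39 ± 0.68 (limma adjusted p = 0.0068), and by -2.24 against all wild-type arrays (0.13), of which replicates 1 and 6 lay within the lymphoma range of 5.78 to 8.88. Nfatc3, a calcium-dependent transcription factor, differed by -0.79 ± 0.13 (limma adjusted p = 0.0021), and by -0.52 against all wild-type arrays (0.11). Stim1, the calcium sensor of the endoplasmic reticulum, differed by -0.80 ± 0.24 (limma adjusted p = 0.039), a call lost in 11 of 18 alternatives, the block among them, and by -0.41 against all wild-type arrays (0.40).

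Of SLAM family receptors and partners of Sh2d1a, 0 of 7 measured genes passed in either comparison with limma, beside 16.8% and 26.4% of all genes. An unadjusted p below 0.05 was held by 3 and 1, beside 31.8% and 42.2% of all genes. Cd244a, a SLAM receptor that signals through Sh2d1a, differed by -2.09 against all wild-type arrays (limma adjusted p = 0.11), where it was highest on replicates 1 and 6, and by -1.12 against replicates 2 to 5 (0.23). Of the paralogs of the members, 3 of 16 were higher and 0 lower against all wild-type arrays, and 2 and 0 against replicates 2 to 5, with medians of -0.22 and 0.35. The share of all genes was 9.13% higher and 7.71% lower in the first comparison. In the second it was 13.2% each way, so the count of higher paralogs there was near the background. Yes1, a Src family kinase, ranged from 4.07 to 7.37 on wild-type and from 7.92 to 9.33 on lymphoma arrays, a difference of 2.15 ± 0.57 (limma adjusted p = 0.028). The call was lost without wild-type replicate 2 (2.03) or without lymphoma 1, 2 or 5 (1.93 to 2.24), at limma adjusted p of 0.0501 to 0.067. Against replicates 2 to 5 it differed by 2.58 (limma adjusted p = 0.015), a call that the block ended (limma adjusted p = 0.053). That left 1 of 16 paralogs higher, beside 10.8% of all genes. Src ranged from 5.06 to 6.37 and from 6.88 to 7.02, a difference of 1.40 ± 0.22 (limma adjusted p = 0.0020), with 3 wild-type arrays in the lowest 25%, and 1.67 against replicates 2 to 5 (4.57e-05). Prkcz, an atypical protein kinase C, differed by 1.29 ± 0.34 (limma adjusted p = 0.028). It lost that call without wild-type replicate 2 or lymphoma 3, 4 or 5 (1.20 to 1.27, limma adjusted p = 0.056 to 0.070), and did not pass against replicates 2 to 5 (limma adjusted p = 0.062).

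**Figure D4:**
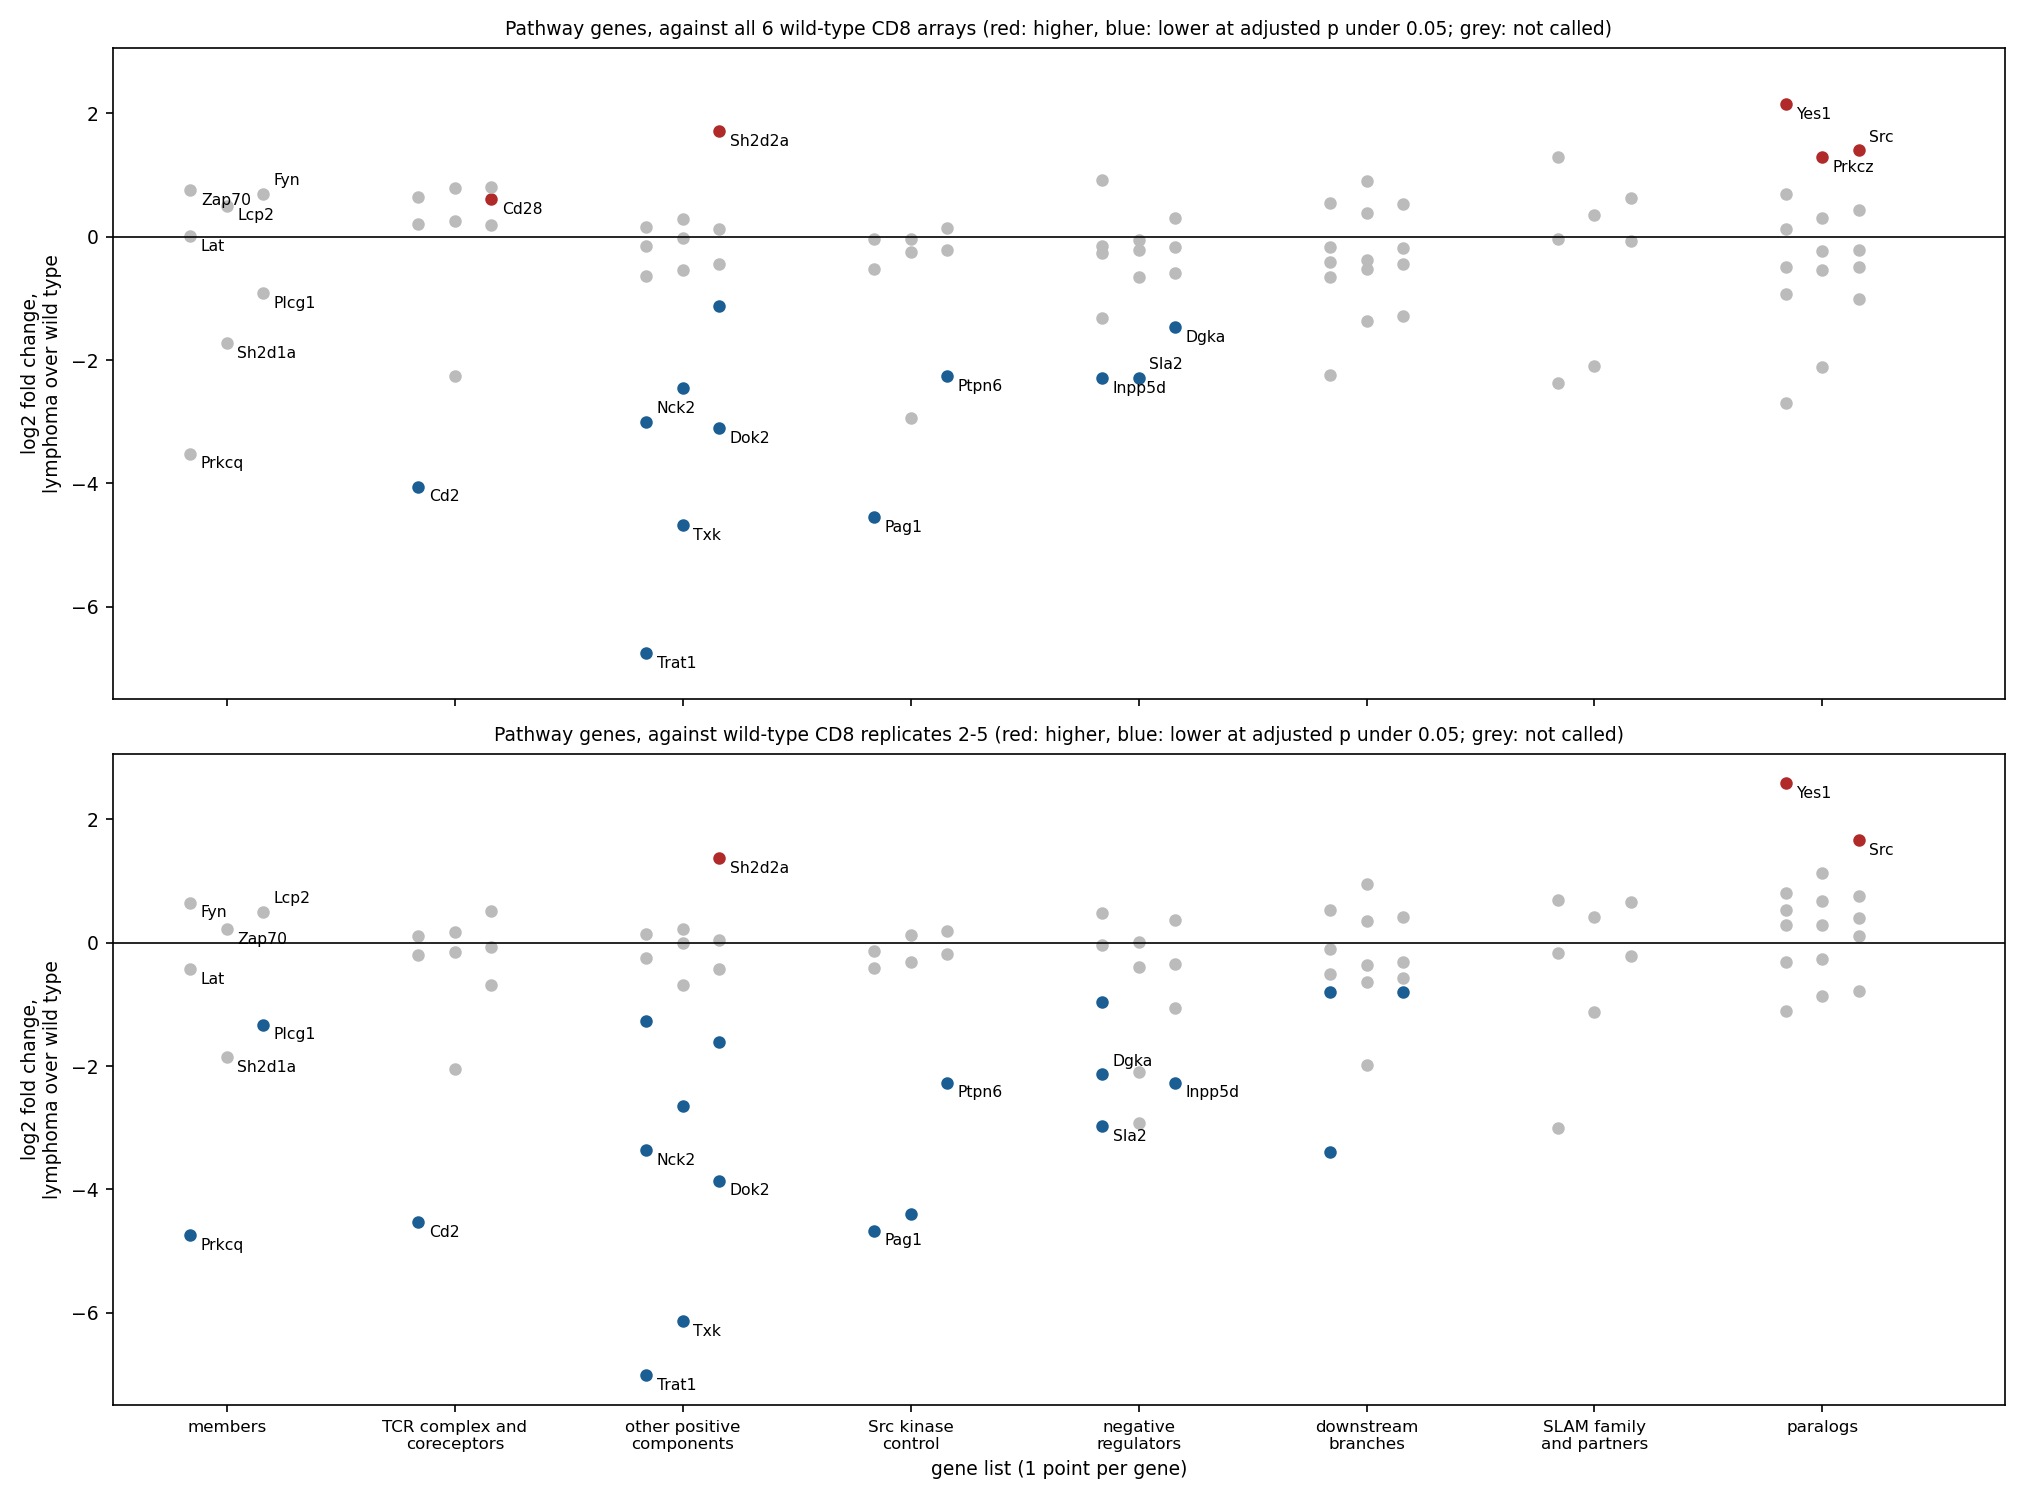
Log2 fold change, lymphoma over wild-type CD8 (vertical axis), of each gene (1 point) in the members and 7 pathway lists (horizontal axis), against all 6 wild-type arrays (top) and replicates 2 to 5 (bottom), coloured red where higher and blue where lower at a limma adjusted p below 0.05. Prkcq moves from -3.52 (grey) to -4.74 (blue) between panels, and Pag1, Ptpn6 and Inpp5d are blue in both.

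In fibroblasts the members other than Fyn served mainly to show the level without a T cell receptor. The main Fyn probe set read 9.74 to 10.3 there, the second 8.06 to 8.86, Lat 6.09 to 6.42, Lcp2 5.57 to 6.06 and Sh2d1a 3.77 to 4.16, the last in the lowest 25% on all 12 arrays. In Ezh2-deficient MEFs 0 of 7 members passed with limma, where 3.49% of genes did (1.02% higher and 2.47% lower), and 2 had an unadjusted p below 0.05 (25.3% of genes). The groups did not overlap for 3 of 7 members, Fyn, Lcp2 and Prkcq, beside 33.7% of all genes. Fyn read 10.25 to 10.31 in these cells and 9.96 to 10.13 in their controls, without overlap, a difference of 0.26 ± 0.06 (limma adjusted p = 0.059). The second Fyn probe set differed by 0.34 ± 0.09 (limma adjusted p = 0.060).

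In MEFs deficient in both Snf5 and Ezh2, 1 of 7 members passed as lower with limma, where 27.5% of genes passed and 14.3% passed as lower. An unadjusted p below 0.05 was held by 1 of 7 members and 38% of genes. The member called was Lat, by -0.18 ± 0.06 (limma adjusted p = 0.048), and the call was lost in 9 of 16 alternatives, among them each that left out 1 array. The groups did not overlap for 3 of 7 members, beside 43.9% of all genes. Both MEF comparisons share their 3 controls: same-numbered arrays of the 2 control sets differed far less than other pairs and each was counted as 1 sample. Fyn differed by 0.01 with its main and by -0.25 ± 0.09 with its second probe set (limma adjusted p = 0.058), and Prkcq and Plcg1, called in the lymphomas, differed by 0.17 ± 0.10 and -0.09 ± 0.08 (limma adjusted p = 0.29 and 0.44). Whether the effect of Snf5 loss differed between fibroblasts and T cells was not tested.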

How the data were processed

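The deposited values were intensity on a linear scale, preprocessed by the authors with Robust Multichip Average (RMA) per the labels' protocols; no version of RMA is named there. They were log2-transformed here. The 64 control probe sets were left out of 22690, and 22626 were tested, of which 20380 named 1 gene, 691 several and 1555 none; symbols were checked against GRCm38.p6 (20351 matched, 0 changed). Groups were compared with limma 3.58.1 in R 4.3.3 (lmFit, eBayes), with Benjamini-Hochberg adjustment over all probe sets. The 11 T cell arrays were fitted together, and again without wild-type replicates 1 and 6.

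The second MEF control set repeated the first: over 7349 bright probe sets the SD of the difference was 0.0266 to 0.0287 for equal numbers and 0.141 to 0.163 for other pairs. The controls were counted once, and 9 distinct MEF arrays entered the fit. This departed from the design written for 12 arrays. Deviations from the group mean in same-numbered CD8 and lymphoma arrays had correlations of 0.193, 0.253, 0.114, 0.334 and 0.143. Arrays with different numbers were not compared in this way, and the labels name no pairs. Whether the numbers pair these arrays is therefore not known, and fits with the replicate block are alternatives only. Wild-type replicate 6 has no lymphoma of its number.

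Members and lists were chosen with earlier results of these data known. Named genes were the members, Smarcb1, Ezh2, up to 4 called genes of each list with the largest change (or the smallest p where none was called), and the 5 genes most like the members; others are marked. Ezh2 itself differed by 1.57 in the lymphomas against all wild-type CD8 arrays and by -2.18 in Ezh2-deficient MEFs on the log2 scale. On simulated data, 37% of log2 changes of 1 and 87% of changes of 3 were recovered against all wild-type CD8 arrays. Each size was given to 100 of 22626 probe sets there, whereas 2088 genes were called in the data. The threshold depends on the share changed, so these rates need not hold for the real comparison. The precision is limited by the number of arrays.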

Additional observations from a re-analysis of the deposited data

How the results depend on the processing

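Against replicates 2 to 5, Prkcq and Plcg1 passed as lower in all 18 alternatives, with Prkcq between -5.59 and -4.24 and Plcg1 between -1.43 and -1.09, and 2 to 3 members passed. Against all 6 wild-type arrays the count of members that passed, 0 as reported, was 1 with a filter on low values or with the probe set of highest variance, 2 with the mean over probe sets or with trend and robust eBayes, 3 with the replicate block and 4 with array weights. It ranged from 0 to 2 when 1 array was left out. Array weights called 3227 genes against 2088, and leaving out 1 array gave 1408 to 2303. In Ezh2-deficient MEFs 1 member, Fyn, passed under quantile normalization, the mean over probe sets, trend and robust eBayes, array weights, or log2 of value plus 16, and 0 to 0 when 1 array was left out. The count of genes there, 432 as reported, was 907 with array weights, 213 with the replicate block, 258 with each MEF set by itself and 88 to 443 without 1 array. The share of calls that were higher moved from 29.2% to 38.1% with quantile normalization. In MEFs deficient in both, 0 members passed under trend and robust eBayes, the replicate block (Lat, limma adjusted p = 0.079), each MEF set by itself, or without 1 array (0 to 0).

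Signs changed for these values. Lat against all wild-type arrays was -0.028 with quantile normalization, -0.014 with median centring, -0.086 with array weights, -0.13 with the replicate block, and ranged from -0.20 to 0.18 without 1 array. Fyn in MEFs deficient in both was -0.0019 with median centring, -0.12 with the mean over probe sets and -0.25 with the probe set of highest variance, and -0.029 to 0.053 without 1 array. Zap70 there was -0.031 with the mean over probe sets, and -0.031 to 0.15 without 1 array. Sh2d1a in Ezh2-deficient MEFs was -0.0072 to 0.072 without 1 array. Cd28 against replicates 2 to 5 was -0.50 with the probe set of highest variance. The cause was not tested. Sh2d1a had no value in MEFs under the filter on low values. MEF replicate numbers gave correlations of deviations of 0.124, 0.144 and -0.027, and 0.026, 0.029 and -0.034, and pairing by number was not settled there either. Apart from the calls given here and in the report, the replicate block changed no call of a member.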
